A study of Mus musculus with 8 samples.

Results

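The 10 genes described here encode mediators by which tumor-infiltrating myeloid cells restrain or inflame an immune response: the arginases Arg1 and Arg2, the inducible nitric oxide synthase Nos2, the prostaglandin enzymes Ptgs2 and Ptges, the checkpoint ligand Cd274 and the cytokines Il10, Il6, Tgfb1 and Tnf. They were chosen by name, and each was represented by 1 probe set of its own, so that all 10 were measured, of 19938 genes with a probe set of their own on the array. Log2 signals were obtained on 8 Affymetrix whole-transcript arrays from cells sorted out of the tail tumors of 4 TAX-LUC mice. These mice express the HTLV-1 oncogene Tax under the human granzyme B promoter together with luciferase under the viral long terminal repeat, and develop a lymphoma of large granular lymphocytes. The IL-15-/- mice lack Il15 in every tissue and were compared with IL-15+/+ mice that carry the same transgenes, on a background of C57BL/6 and FVB crosses. Each tumor gave 1 CD16/32HI and 1 CD16/32LO sample, so that each of the 4 groups held 2 arrays: CD16/32HI IL-15-/-, CD16/32HI IL-15+/+, CD16/32LO IL-15-/- and CD16/32LO IL-15+/+. In both genotypes the mouse of replicate 1 was 14 months old and the mouse of replicate 2 was 12 months old. The study describes CD16/32HI cells as rich in malignant lymphocytes and CD16/32LO cells as rich in neutrophils.

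Arginases split arginine into ornithine and urea, and nitric oxide synthases turn the same amino acid into nitric oxide and citrulline. Myeloid cells in tumors are known to use both routes, and T cells that are starved of arginine proliferate poorly. Ptgs2 and Ptges act in sequence to make prostaglandin E2, the protein of Cd274 (PD-L1) engages the inhibitory receptor PD-1 on T cells, and IL-10 and TGF-beta are inhibitory cytokines, whereas TNF and IL-6 are inflammatory ones.

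Several features of the arrays bear on all values below. Array medians lay between 5.62 and 5.93 on the log2 scale, and exactly equal values were shared only within 3 sets of arrays (11 to 106 a pair, against 0 between sets), namely the 4 arrays of replicate 1, the IL-15-/- arrays of replicate 2 and the IL-15+/+ arrays of replicate 2. Genotypes can therefore be compared within 1 normalization set only in replicate 1. The IL-15+/+ arrays of replicate 2 had the lowest medians (5.620 and 5.652), against 5.856 to 5.933 on the other arrays. Xist was at 10.08 to 10.75 on the IL-15-/- arrays and at 3.92 to 4.64 on the IL-15+/+ arrays, so that sex and genotype cannot be told apart. Il15 averaged 5.88 and 5.88 in the IL-15-/- mice and 5.91 and 6.03 in the IL-15+/+ mice. By the study's account a resistance cassette takes the place of some Il15 exons in the knockout and most probes of the set match the exons left in place, so this summarized signal does not check the genotype labels. Of 11 macrophage markers measured, 9 were higher in the CD16/32HI fraction of 3 mice (limma, adjusted p under 0.05), and 11 of 12 neutrophil markers were lower. The 14-month IL-15-/- mouse ran the other way. The complement gene C1qa was at 7.68 on its CD16/32HI array and at 10.73 on its CD16/32LO array, and the neutrophil receptor Csf3r was at 10.74 and 7.32. Only 5 of 500 population genes chosen in the other 3 animals had the same sign there. The labels were kept as deposited, genotype differences within a population are also given without both of its arrays, and the mean of both arrays of a mouse is used as a measure that does not depend on which array carries which label. The 12 T and NK cell markers averaged 5.43 to 5.48 on CD16/32HI IL-15-/- arrays and 5.84 to 6.30 on CD16/32HI IL-15+/+ arrays, which is close to the array medians, against 5.41 to 5.90 and 7.35 to 7.65 in CD16/32LO cells of these genotypes. Because RNA of whole sorted fractions was measured, fewer cells of a type and less RNA per cell cannot be told apart.

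No difference between the genotypes in any of the 10 genes passed the test within a population. In CD16/32HI cells limma called 0 of the 10 (3 at an unadjusted p under 0.05, as had 4.91% of all probe sets) and 5 of all 21789 probe sets tested (0.0229%). For CD16/32LO cells it called 0 of the 10 (2 at an unadjusted p under 0.05, against 1.91% of all) and 8 of all (0.0367%). In CD16/32HI cells both IL-15-/- arrays lay above both IL-15+/+ arrays for 4 of the 10 genes, Nos2, Ptgs2, Cd274 and Tnf, against 24.1% of all probe sets, and 0 of the 10 lay below, against 10.4%. In CD16/32LO cells 5 of the 10 lay above (Arg1, Nos2, Ptges, Il6 and Tnf), against 24.2%, and 1 below (Arg2), against 4.7%. The 1-way test of the methods, on the 4 arrays of a population, called 0 of the 10 in either, also at an unadjusted p under 0.05. The median log2 difference of the 10 genes was 0.55 in CD16/32HI cells (0.09 over all probe sets) and 0.28 in CD16/32LO cells (0.13 over all). With both arrays of the 14-month IL-15-/- mouse left out, limma still called 0 of the 10 in either population (3 and 2 at an unadjusted p under 0.05, against 5.5% and 3.47% of all), and 0.0413% and 0.119% of all probe sets in CD16/32HI and CD16/32LO cells.

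**Figure D1:**
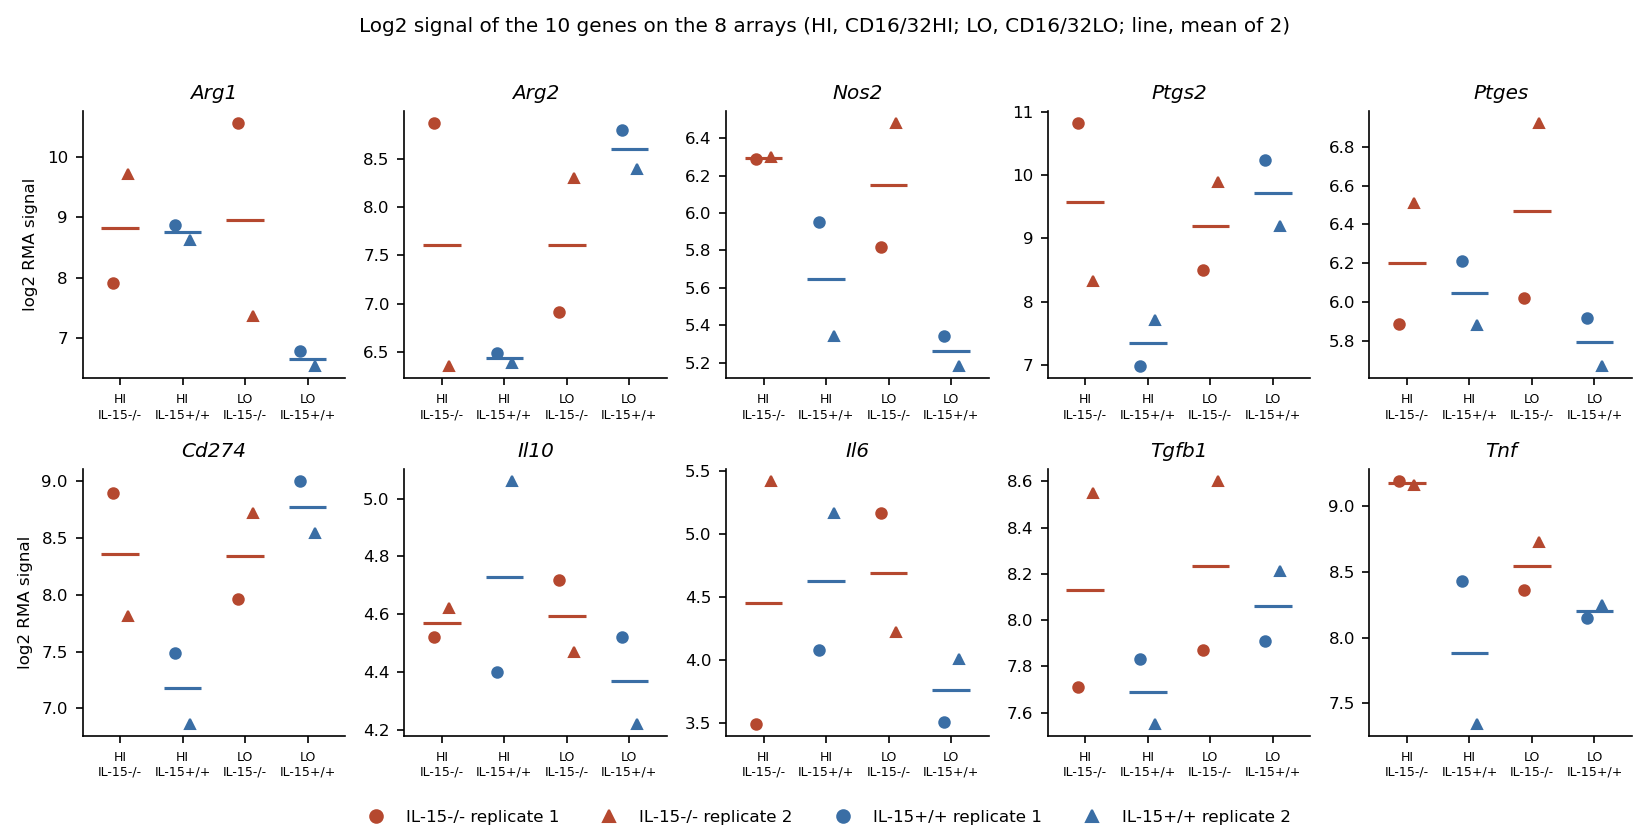
Log2 RMA signal (y axis) of each of the 10 genes on the 8 arrays, by population and genotype (x axis), with circles for replicate 1, triangles for replicate 2 and a line at the mean of 2 arrays. Nos2 and Tnf are the genes whose IL-15-/- points lie above the IL-15+/+ points in both populations, and the y axes differ between panels.

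Arg1, the cytosolic arginase that marks many tumor macrophages, differed more between the populations than any other of the 10 genes in both mice of replicate 2. It was at 7.92 and 9.72 in CD16/32HI cells of the IL-15-/- mice of replicates 1 and 2, against 8.88 and 8.62 in CD16/32HI cells of the IL-15+/+ mice. Its CD16/32LO signal was 10.55 and 7.37 in IL-15-/- mice, against 6.79 and 6.54 in IL-15+/+ mice. The CD16/32HI groups overlapped and the CD16/32LO groups did not. Limma gave a log2 difference of 0.07 in CD16/32HI cells (SE 0.903, adjusted p = 0.995), whose sign turned to -0.07 with arrays centred on their medians and to -0.20 with quantile normalization. The CD16/32LO difference was 2.29, or 4.89-fold (SE 0.903, 95% interval 0.24 to 4.34, adjusted p = 1, unadjusted p = 0.0327). The array of replicate 1 was by far the higher of the CD16/32LO IL-15-/- pair. With that mouse left out it was 0.70 in CD16/32LO cells (SE 0.324) and 0.97 in CD16/32HI cells (SE 0.324, adjusted p = 0.869).

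Arg2, the mitochondrial arginase, ran the opposite way to Arg1. It was at 8.87 and 6.35 in CD16/32HI cells of IL-15-/- mice, against 6.49 and 6.38 in IL-15+/+ mice, and at 6.91 and 8.30 in CD16/32LO cells of IL-15-/- mice, against 8.80 and 8.40 in IL-15+/+ mice. The array labelled CD16/32HI of the 14-month IL-15-/- mouse was the high one of its population, and the 3 other CD16/32HI arrays lay within 6.35 to 6.49. The log2 difference between genotypes was 1.18 (SE 0.726, adjusted p = 0.854) in the CD16/32HI fraction, and in CD16/32LO cells the fitted ratio was 0.501-fold (SE 0.726 on the log2 scale, adjusted p = 1). Without that mouse the log2 differences were -0.08 and -0.30, with SEs of 0.329.

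Nos2, the inducible synthase of activated macrophages, showed the same order in both populations. Its signal was 6.29 and 6.30 in CD16/32HI cells of IL-15-/- mice, against 5.95 and 5.34 in IL-15+/+ mice, and 5.82 and 6.48 in CD16/32LO cells of IL-15-/- mice, against 5.34 and 5.18 in IL-15+/+ mice. All 4 IL-15-/- arrays lay above the IL-15+/+ arrays of their population, although the values lay near the array medians, between the percentiles 32.5 and 59.5 of their arrays. The log2 difference was 0.66 (SE 0.299, adjusted p = 0.854) in the CD16/32HI fraction and 0.89 in CD16/32LO cells (SE 0.299, adjusted p = 1, unadjusted p = 0.0163). Within replicate 1, where all arrays shared 1 normalization set, the IL-15-/- mouse exceeded the IL-15+/+ mouse by 0.35 and 0.48 in CD16/32HI and CD16/32LO cells. Within replicate 2, where the genotypes lay in different normalization sets and the IL-15+/+ arrays had the lower medians, the excess was 0.97 and 1.29. Without the 14-month IL-15-/- mouse the estimates were 0.66 and 1.22 (adjusted p = 0.887 and 0.901).

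Ptgs2 encodes cyclooxygenase-2, the inducible enzyme that commits arachidonic acid to prostaglandins, and had the largest log2 difference of the 10 genes in CD16/32HI cells. It was at 10.82 and 8.33 in CD16/32HI cells of IL-15-/- mice, against 6.98 and 7.71 in IL-15+/+ mice. Both IL-15-/- arrays were above both IL-15+/+ arrays, and the array of replicate 1 was far above the other. The log2 difference was 2.23, or 4.68-fold (SE 0.775, 95% interval 0.47 to 3.99, adjusted p = 0.854, unadjusted p = 0.0189), and without both arrays of that mouse it was 0.98 (SE 0.464). The CD16/32LO signal of Ptgs2 was 8.50 and 9.89 in IL-15-/- mice, against 10.24 and 9.19 in IL-15+/+ mice, and these groups overlapped. The log2 difference there was -0.52 (SE 0.775, adjusted p = 1), and 0.18 without that mouse.

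Ptges encodes the inducible synthase that turns the cyclooxygenase product into prostaglandin E2. It was at 5.89 and 6.51 in CD16/32HI cells of IL-15-/- mice, against 6.21 and 5.88 in IL-15+/+ mice, and at 6.02 and 6.92 in CD16/32LO cells of IL-15-/- mice, against 5.92 and 5.67 in IL-15+/+ mice. Both high values belonged to the IL-15-/- mouse of replicate 2. On the arrays of that mouse the fibroblast marker Dcn was at 9.25 in CD16/32HI and 10.45 in CD16/32LO cells, against 5.06 to 6.51 on the 6 other arrays, and the mean of 6 fibroblast markers was 6.39 and 6.62, against 5.38 to 6.12. Dcn weighed heavily in that mean, and the 6 markers did not rise together. Without the 14-month IL-15-/- mouse, 4 of them had a positive and 2 a negative genotype difference in each population. Their medians were 0.23 in CD16/32HI and 0.05 in CD16/32LO cells, against 0.12 and 0.14 over all probe sets. The part of fibroblasts in the Ptges values was not tested. The log2 difference between genotypes was 0.16 (SE 0.347, adjusted p = 0.955) in the CD16/32HI fraction, with a turned sign under quantile normalization (-0.02), and 0.67 in CD16/32LO cells (SE 0.347, adjusted p = 1). Without the 14-month IL-15-/- mouse, so that the mouse with high Dcn alone stood for its genotype, the differences were 0.47 and 1.12 (SE 0.329 each, adjusted p = 0.914 and 0.901).

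The promoter of Ptgs2 is shown beside those of Cd274 and Tnf because Ptgs2 and Cd274 moved together over the 8 arrays, and Ptgs2 and Tnf had 2 of the 3 largest differences between the genotypes in the mean of both populations (given below). The sequences are RefSeq's on GRCm38.p6, 250 bases before to 50 after each start, and were at hand for 6 of the 10 genes (Ptgs2, Ptges, Cd274, Il6, Tgfb1 and Tnf). The 3 shown lie at chr1:150099781-150100080 (plus strand), chr19:29367188-29367487 (plus strand) and chr17:35201958-35202257 (minus strand). Capitals mark matches, on either strand, to 5 short motifs.
Ptgs2: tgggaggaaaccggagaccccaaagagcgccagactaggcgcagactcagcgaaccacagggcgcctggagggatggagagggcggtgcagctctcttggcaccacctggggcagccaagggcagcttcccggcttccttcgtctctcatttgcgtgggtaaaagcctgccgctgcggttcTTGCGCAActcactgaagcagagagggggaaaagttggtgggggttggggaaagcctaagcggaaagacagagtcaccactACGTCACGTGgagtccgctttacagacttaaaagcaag
Cd274: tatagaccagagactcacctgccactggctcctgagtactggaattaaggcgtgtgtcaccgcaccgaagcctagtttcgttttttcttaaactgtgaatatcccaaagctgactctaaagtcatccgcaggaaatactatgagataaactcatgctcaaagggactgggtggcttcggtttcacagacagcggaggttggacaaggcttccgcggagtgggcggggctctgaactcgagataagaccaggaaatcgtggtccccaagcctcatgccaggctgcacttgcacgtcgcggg
Tnf: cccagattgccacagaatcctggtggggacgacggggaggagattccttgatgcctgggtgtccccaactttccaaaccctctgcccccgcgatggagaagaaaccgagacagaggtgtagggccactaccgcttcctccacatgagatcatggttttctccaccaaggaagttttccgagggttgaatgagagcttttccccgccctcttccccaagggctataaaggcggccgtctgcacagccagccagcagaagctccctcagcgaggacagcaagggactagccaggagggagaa
The Ptgs2 window held the C/EBP motif TTGCGNAA (in 0.798% of all 32851 promoters of this length), the CRE half-site TGACGT (7.51%) and the E-box CACGTG (7.15%), the last pair overlapping. The windows of Cd274, Tnf, Ptges and Tgfb1 held none of the motifs searched, which says only that these letters are not in these windows. That of Il6 held the kappaB-type motif GGANTTTCC (1.25%), the AP-1 motif TGANTCA (7.81%) and the CRE half-site.

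Cd274, the ligand of PD-1, followed Ptgs2. It was at 8.90 and 7.81 in CD16/32HI cells of IL-15-/- mice, against 7.49 and 6.86 in IL-15+/+ mice, and the groups did not overlap. In CD16/32LO cells it was at 7.96 and 8.72 in IL-15-/- mice, against 9.0 and 8.54 in IL-15+/+ mice, and the groups did overlap. The log2 difference was 1.18 in CD16/32HI cells, or 2.26-fold (SE 0.422, 95% interval 0.22 to 2.14, adjusted p = 0.854, unadjusted p = 0.0215), and -0.43 in CD16/32LO cells (SE 0.422, adjusted p = 1). Without the 14-month IL-15-/- mouse the differences were 0.63 and -0.05. The 3 arrays with the highest Cd274 values were the CD16/32LO arrays of replicate 1 in IL-15+/+ and of replicate 2 in IL-15-/- mice and the array labelled CD16/32HI of the 14-month IL-15-/- mouse.

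Tnf, the inflammatory cytokine of macrophages and neutrophils, was the gene of the 10 with the smallest unadjusted p in CD16/32HI cells. It was at 9.19 and 9.16 in CD16/32HI cells of IL-15-/- mice, against 8.43 and 7.34 in IL-15+/+ mice. The IL-15-/- arrays lay close together and above both IL-15+/+ arrays. The log2 difference was 1.29, or 2.45-fold (SE 0.344, 95% interval 0.51 to 2.07, adjusted p = 0.854, unadjusted p = 0.00476), and 1.28 without the 14-month IL-15-/- mouse. In CD16/32LO cells Tnf was at 8.36 and 8.73 in IL-15-/- mice, against 8.15 and 8.25 in IL-15+/+ mice, with no overlap and a log2 difference of 0.34 (SE 0.344, adjusted p = 1), or 0.53 without that mouse.

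Il6 and Il10 lay low on the arrays. Il6 was at 3.49 and 5.42 in CD16/32HI cells of IL-15-/- mice, against 4.08 and 5.17 in IL-15+/+ mice, and at 5.17 and 4.22 in CD16/32LO cells of IL-15-/- mice, against 3.51 and 4.01 in IL-15+/+ mice. Its values were between the percentiles 5.7 and 36.6 of their arrays. In CD16/32HI cells the array labelled IL-15-/- of replicate 1 was the low one and the groups overlapped. The log2 difference of Il6 was -0.17 in CD16/32HI cells (SE 0.623), or 0.79 without the 14-month IL-15-/- mouse, and 0.93 in CD16/32LO cells (SE 0.623, 95% interval -0.48 to 2.35), or 0.46 without it. Il10 was at 4.52 and 4.62 in CD16/32HI cells of IL-15-/- mice, against 4.40 and 5.06 in IL-15+/+ mice, and at 4.72 and 4.47 in CD16/32LO cells of IL-15-/- mice, against 4.52 and 4.22 in IL-15+/+ mice. The groups overlapped in both populations, the values lay between the percentiles 14.2 and 32.5 of their arrays, and the log2 differences were -0.16 and 0.22 (SE 0.277 each), or -0.11 and 0.09 without that mouse.

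Tgfb1, which encodes the latent form of TGF-beta 1, was at 7.71 and 8.55 in CD16/32HI cells of IL-15-/- mice, against 7.83 and 7.55 in IL-15+/+ mice, and at 7.87 and 8.60 in CD16/32LO cells of IL-15-/- mice, against 7.91 and 8.21 in IL-15+/+ mice. As for Ptges, both high values were those of the IL-15-/- mouse of replicate 2, on whose arrays Dcn was high, and the groups overlapped. The log2 differences were 0.44 and 0.17 in CD16/32HI and CD16/32LO cells (SE 0.35 each, adjusted p = 0.869 and 1). Without the 14-month IL-15-/- mouse they were 0.86 and 0.54 (SE 0.328 each, adjusted p = 0.869 and 1), and then only the mouse with high Dcn stood for IL-15-/-.

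The mean of both arrays of a mouse compares the genotypes without use of the population labels. Arg1 averaged 9.23 and 8.54 in the IL-15-/- mice of replicates 1 and 2, against 7.84 and 7.58 in the IL-15+/+ mice, a log2 difference of 1.18 or 2.26-fold (SE 0.248, 95% interval 0.66 to 1.70). The mice did not overlap, and the adjusted p from limma was 0.0737, so that Arg1 did not pass. Its call depended on the setting. The adjusted p was 0.0246 over probe sets at or above the median signal and 0.0212 with genes as the unit of the test, against 0.482 with arrays centred on their medians, 0.719 with quantile normalization and 0.517 over all probe sets of the array. It was also called without the IL-15+/+ mouse of replicate 1 (1.31, adjusted p = 0.0198) and without the IL-15-/- mouse of replicate 2 (1.52, adjusted p = 0.00577), and not without the IL-15+/+ mouse of replicate 2 (1.05, adjusted p = 0.193) or the 14-month IL-15-/- mouse (0.83, adjusted p = 0.746).

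Ptgs2, Tnf and Nos2 followed Arg1 in size. Ptgs2 averaged 9.66 and 9.11 in IL-15-/- mice, against 8.61 and 8.45 in IL-15+/+ mice, a log2 difference of 0.86 (SE 0.236, adjusted p = 0.371). Tnf averaged 8.78 and 8.95 in IL-15-/- mice, against 8.29 and 7.80 in IL-15+/+ mice, a difference of 0.82 (SE 0.233, adjusted p = 0.397). Without the 14-month IL-15+/+ mouse it was 1.06, with IL-15+/+ then represented only by 1 mouse, that with the lowest array medians. Nos2 averaged 6.06 and 6.39 in IL-15-/- mice, against 5.64 and 5.26 in IL-15+/+ mice, a difference of 0.77 (SE 0.232, adjusted p = 0.472). These mice did not overlap in any of the 3 genes. Cd274 averaged 8.43 and 8.26 in IL-15-/- mice, against 8.25 and 7.70 in IL-15+/+ mice, with a difference of 0.37 (SE 0.236, adjusted p = 0.993), and its inner values were nearly equal. With a block for the replicate number, which goes with age in both genotypes, Arg1 (adjusted p = 6.71e-05), Ptgs2 (0.0218) and Tnf (0.034) were called and Nos2 (0.0586) was not.

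Over the 10 genes, both IL-15-/- mice were above both IL-15+/+ mice in 5, against 26.9% of all probe sets, and 0 were below, against 6.28%. Limma called 0 of the 10 (4 at an unadjusted p under 0.05, against 4.89% of all probe sets) and 37 of all probe sets (0.17%). All 10 estimates were positive, with a median of 0.40 against 0.12 over all probe sets, whose positive share was not counted. Those of Arg2 (0.09) and Il10 (0.03) turned to -0.04 and -0.10 with arrays centred on their medians and to -0.08 and -0.07 with quantile normalization. The centred differences, which take out the shift of all genes, were 1.05 for Arg1, 0.73 for Ptgs2, 0.69 for Tnf and 0.65 for Nos2. Within replicate 1 the IL-15-/- mouse was above the IL-15+/+ mouse in 8 of the 10 genes with a median difference of 0.33, and within replicate 2 in 8 of the 10 with a median of 0.68. For Arg1 these differences were 1.40 and 0.96, for Ptgs2 1.05 and 0.66, for Tnf 0.49 and 1.15, and for Nos2 0.42 and 1.13, in replicates 1 and 2. In replicate 2 the genotypes lay in different normalization sets. The array medians there were 5.620 and 5.652 for IL-15+/+ and 5.856 and 5.927 for IL-15-/-. A shift of scale is thus not separated from genotype in that replicate, and no median over all probe sets is given within a replicate.

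**Figure D2:**
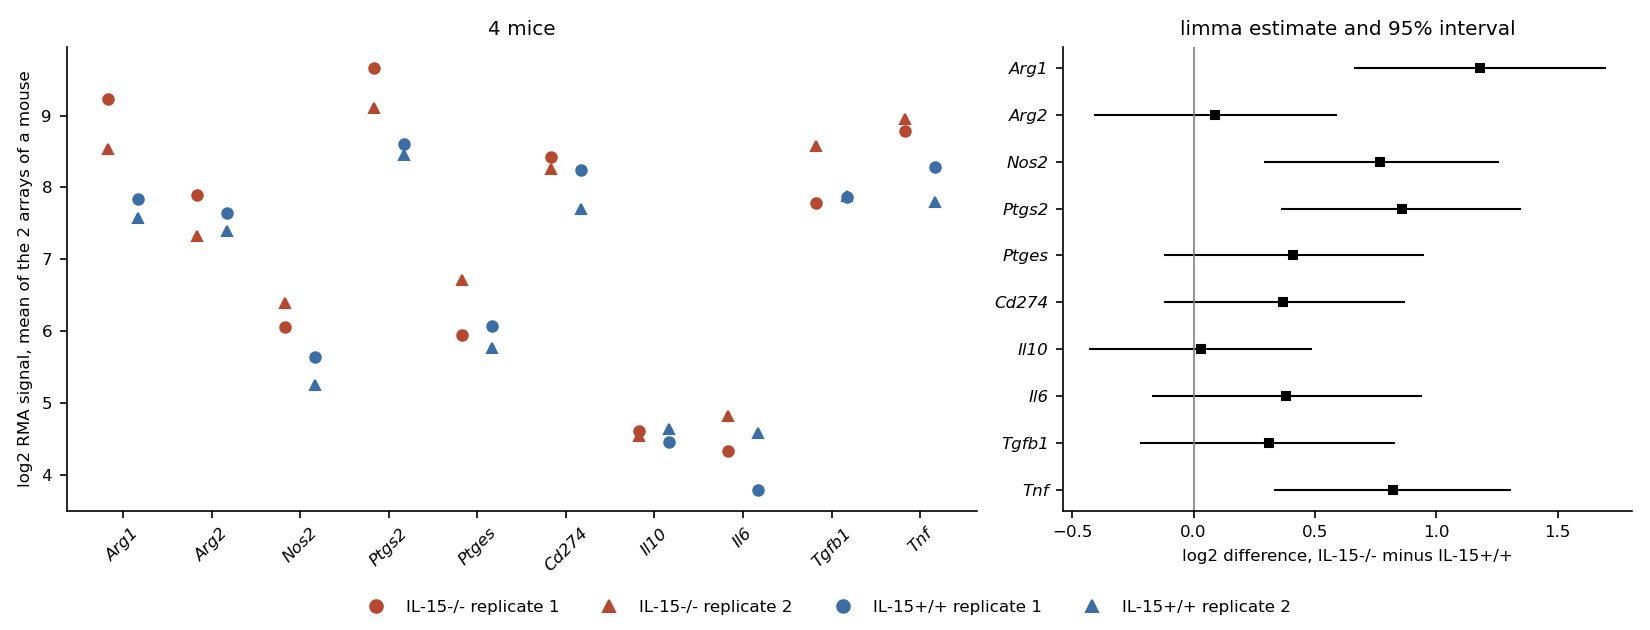
Left, log2 RMA signal averaged over both arrays of each mouse (y axis) for the 10 genes, IL-15-/- beside IL-15+/+. Right, the log2 difference IL-15-/- minus IL-15+/+ from limma (x axis) with its 95% interval. The intervals of Arg1, Nos2, Ptgs2 and Tnf lie above 0 before adjustment for the number of probe sets, and those of the 6 other genes include 0.

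Between the 2 populations, 5 of the 10 genes differed in 3 of the mice and ran the other way in the 14-month IL-15-/- mouse. With all 4 mice limma called 0 of the 10 genes (0 at an unadjusted p under 0.05) and 0 of all probe sets (0%, with 257, or 1.18%, at an unadjusted p under 0.05). Without both arrays of that mouse it called 5 of the 10 and 3114 of all (14.3%). This setting was fixed with the marker pattern of that mouse known.

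Arg1 was higher in the CD16/32HI fraction by 2.36 in the IL-15-/- mouse of replicate 2 and by 2.09 and 2.08 in the IL-15+/+ mice, against a difference of -2.63 in the 14-month IL-15-/- mouse. Without that mouse the estimate was 2.17, or 4.52-fold (SE 0.143, adjusted p = 4.3e-05 from limma). Arg2 differed by -1.94 in the IL-15-/- mouse of replicate 2 and by -2.31 and -2.02 in the IL-15+/+ mice, against 1.97 in the 14-month IL-15-/- mouse, and the estimate over 3 mice was -2.09 (SE 0.146, adjusted p = 5.45e-05). Both arginases thus differed between the populations by a like amount and in opposite directions.

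Ptgs2 was lower in CD16/32HI cells of the IL-15-/- mouse of replicate 2 (-1.56) and of the IL-15+/+ mice (-3.26 and -1.48), and higher in the 14-month IL-15-/- mouse (2.32), with an estimate over 3 mice of -2.10 (SE 0.304, adjusted p = 0.00192). Cd274 gave -0.91, -1.51 and -1.67 in the 3 mice and 0.94 in the fourth, with an estimate of -1.36 (SE 0.175, adjusted p = 0.00103). Il6 gave 1.20, 0.57 and 1.16 in the 3 mice and -1.67 in the fourth, with an estimate of 0.98 (SE 0.166, adjusted p = 0.00442). The estimates of Nos2 (0.20, SE 0.173), Ptges (0.03, SE 0.171), Il10 (0.29, SE 0.191), Tgfb1 (-0.26, SE 0.165) and Tnf (-0.07, SE 0.241) over 3 mice did not pass. No gene's genotype difference was called as different between the populations (0 of 21789, 0%, with 578, or 2.65%, at an unadjusted p under 0.05).

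**Figure D3:**
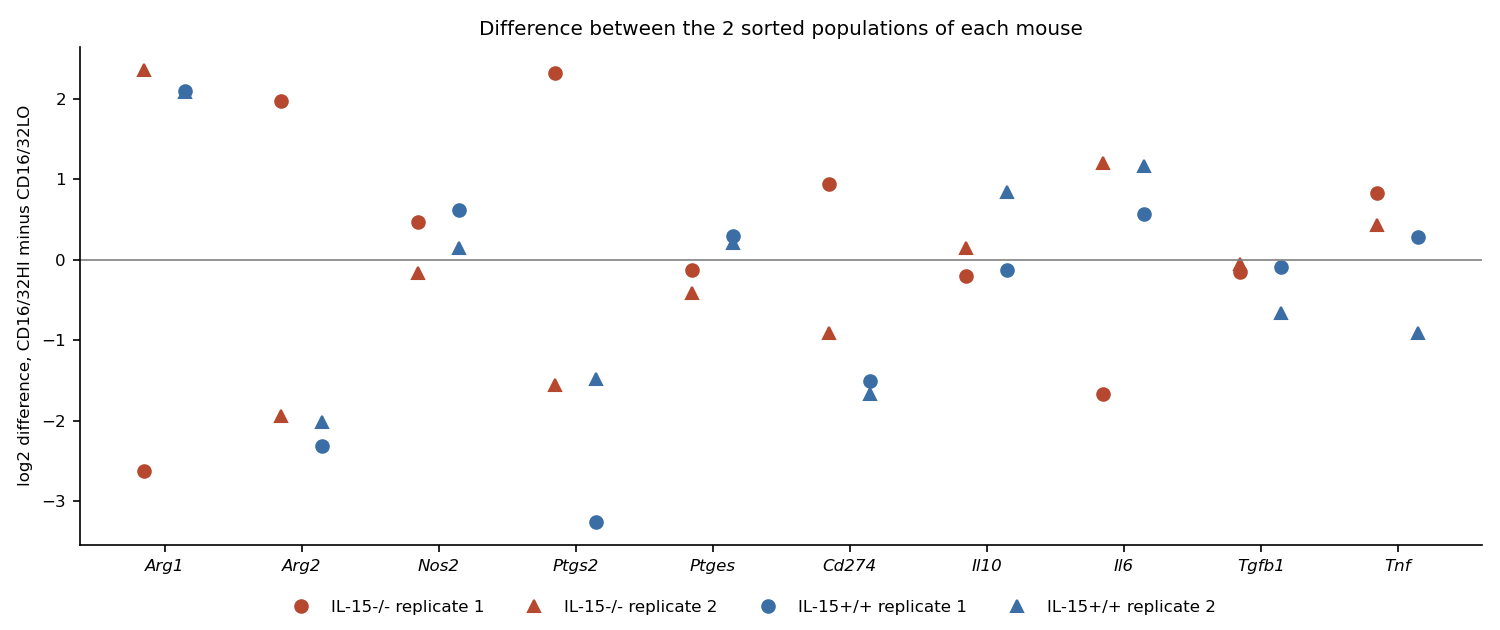
Log2 difference between CD16/32HI and CD16/32LO cells of the same tumor (y axis) for each of the 10 genes in the 4 mice, IL-15-/- beside IL-15+/+, with circles for replicate 1 and triangles for replicate 2. In Arg1, Arg2, Ptgs2, Cd274 and Il6 the 14-month IL-15-/- mouse lies on the other side of 0 from the 3 other mice.

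Across the 8 arrays the genes that differed between populations moved with the macrophage and neutrophil transcripts, a description over arrays that share mice, normalization sets and labels. Pearson's r with C1qa was 0.88 for Arg1 and 0.83 for Il6, against -0.96 for Arg2, -0.83 for Ptgs2 and -0.79 for Cd274. With Csf3r it was 0.98 for Arg2, 0.87 for Ptgs2, 0.88 for Cd274 and -0.86 for Arg1. The mean of the 11 macrophage markers was 8.09 and 10.08 in CD16/32HI cells of IL-15-/- mice, against 9.84 and 9.48 in IL-15+/+ mice, and 9.87 and 8.20 in CD16/32LO cells of IL-15-/- mice, against 8.30 and 8.06 in IL-15+/+ mice. That of the 12 neutrophil markers was 9.97 and 7.62 in CD16/32HI cells of IL-15-/- mice, against 7.77 and 7.51 in IL-15+/+ mice, and 8.01 and 9.80 in CD16/32LO cells of IL-15-/- mice, against 9.71 and 10.31 in IL-15+/+ mice. The part of the cell mixture in the values of these 5 genes was not tested. Nos2 (r = 0.14 with C1qa), Tnf (-0.06), Tgfb1 (-0.00) and Ptges (0.21) did not follow this axis.

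**Figure D4:**
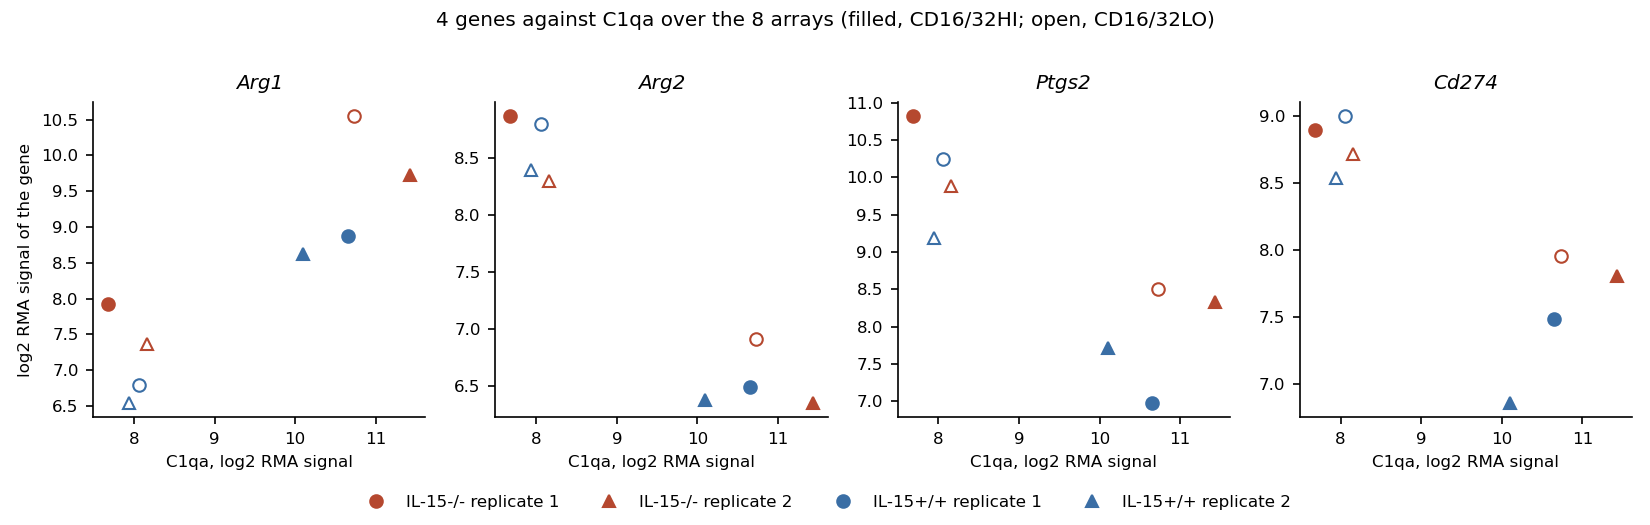
Log2 RMA signals of Arg1, Arg2, Ptgs2 and Cd274 (y axes) against that of the macrophage gene C1qa (x axis) on the 8 arrays, filled for CD16/32HI and open for CD16/32LO. Along the x axis only, the filled circle of the IL-15-/- mouse lies by the open symbols and its open circle among the filled ones. On the y axis its open circle lies above the other filled symbols in every panel. Its filled circle lies above the other open symbols for Arg1, Arg2 and Ptgs2. Arg1 rises with C1qa while the 3 other genes run the other way.

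Among the 10 genes themselves, Arg2, Ptgs2 and Cd274 formed a group with r of 0.92 (Arg2 with Ptgs2), 0.93 (Arg2 with Cd274) and 0.91 (Ptgs2 with Cd274) over the 8 arrays. Arg1 ran with Il6 (0.76) and against Arg2 (-0.78), and Nos2 ran with Tnf (0.80) and Ptges (0.77). Among the 19937 other genes, those most like Arg1 were Fabp5 (r = 0.985), Lepr, Tnni3, Parvb and Psmc1 (0.972), and those most like Cd274 were Hipk1 (0.992), Chfr, Stx5a, the decoy IL-1 receptor Il1r2 (0.990) and Ncoa2. Those most like Ptgs2 were Ppp1r15b (0.985), Zfp715, Trim25, Rbl2 and Plcl2 (0.976), and those most like Nos2 were Mmgt1 (0.979), Tmem174, Tafa4, Tmem60 and Gm4780 (0.960).

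The other genes of the same pathways were read from 8 lists. In each list limma called 0 genes in CD16/32HI cells, in CD16/32LO cells and in the mean of both populations, so that no genotype difference of a listed gene passed in these tests. Of 14 measured genes of arginine and polyamine metabolism, 12 had a positive and 2 a negative log2 difference in the mean of both populations (median 0.14, against 0.12 over all probe sets). The share of all probe sets with a positive difference was not counted. Their median above 0 raises the count of positive genes in every list, so these counts are not read as shifts of a pathway. The arginine transporter Slc7a2 had the largest, at 1.39 (SE 0.345, adjusted p = 0.223), with 7.68 and 8.71 in IL-15-/- mice, against 7.45 and 6.16 in IL-15+/+ mice. Its differences within replicates 1 and 2 were unlike, at 0.23 and 2.54. The difference was 2.03 without the IL-15+/+ mouse of replicate 1 and 1.90 without the 14-month IL-15-/- mouse, fits that leave 1 mouse in a genotype. Slc7a2 was called with genes as the unit (adjusted p = 0.0486) and with the replicate block (adjusted p = 5.07e-07). That block leaves little in 4 mice from which to estimate the spread, so its small p does not show that the replicates were alike. The polyamine acetylase Sat1 and the antizyme inhibitor Azin1 had differences of 0.56 and 0.46. Of 9 genes of nitric oxide synthases and their cofactor, Gch1, which starts the synthesis of the cofactor tetrahydrobiopterin, had the largest difference among genes whose mice did not overlap, at 0.43 (SE 0.23), and the endothelial synthase Nos3 and the cofactor enzyme Spr had 0.21 and 0.12. The sign of Spr turned with arrays centred on their medians (-0.01) and with quantile normalization (-0.03).

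Of 18 measured genes of the prostaglandin pathway, 13 were positive and 5 negative (median 0.09). The phospholipase Pla2g4a, which frees arachidonic acid and is the chromosomal neighbor of Ptgs2, averaged 8.68 and 9.58 in IL-15-/- mice, against 8.51 and 8.30 in IL-15+/+ mice, a difference of 0.72 (SE 0.264, adjusted p = 0.811). Alox5ap, which serves leukotriene synthesis, and the thromboxane synthase Tbxas1 had 0.40 and 0.37. Between the populations, in the 3 mice, this list held 5 genes that were higher in the CD16/32HI fraction and 2 that were lower, against 14.3% of all probe sets called in either direction. In the other lists 2 were higher and 0 lower of 14 for arginine, 1 and 1 of 9 for nitric oxide, 1 and 3 of 14 for checkpoints, 1 and 4 of 15 for IL-10 and IL-6, 1 and 2 of 20 for TGF-beta, 0 and 4 of 15 for TNF, and 1 and 4 of 14 for the NF-kB and hypoxia regulators. The prostaglandin-degrading enzyme Hpgd (2.90, adjusted p = 2.27e-05) and the prostaglandin D2 synthase Hpgds (2.49, adjusted p = 6.85e-05) were higher in CD16/32HI cells, while the leukotriene enzyme Alox5 was lower there (-3.06, adjusted p = 3.9e-05), as Ptgs2 was.

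Of 14 checkpoint ligands and receptors 9 were positive and 5 negative (median 0.25), and the largest differences among those without overlap were those of the inhibitory receptor Havcr2 (0.56, SE 0.238), of Cd276 (0.45) and of the Havcr2 ligand Lgals9 (0.40), the chromosomal neighbor of Nos2. Without overlap 6 of the 14 lay above, against 26.9% of all probe sets. Another 3 lay below, against 6.28%, namely Pdcd1 (-0.26), Ctla4 (-0.16) and Cd47 (-0.13). Pdcd1lg2, the second ligand of PD-1 and the neighbor of Cd274, averaged 7.18 and 7.50 in IL-15-/- mice, against 7.19 and 7.10 in IL-15+/+ mice (0.20, SE 0.224). Between the populations, over 3 mice, Pdcd1lg2 differed by 0.08 (adjusted p = 0.768), against -1.36 for Cd274. Lta and Ltb, which flank Tnf, had differences of 0.28 and -0.06 in the mean of both populations, against 0.82 for Tnf.

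The list named for IL-10 and IL-6 signaling was broader than its name, as it also held Il4ra, Stat6, Il12a, Il12b, Il27 and Ebi3. Of its 15 genes 12 were positive (median 0.22), with the IL-10 receptor chains Il10ra at 0.66 (SE 0.246) and Il10rb at 0.48. The IL-4 receptor chain Il4ra was at 0.59. In CD16/32HI cells the median of this list was 0.59 (0.09 over all probe sets) and 6 of 15 genes had an unadjusted p under 0.05, against 4.91% of all probe sets. Without the 14-month IL-15-/- mouse that median was 0.41 (0.12 over all). Of 20 genes of the TGF-beta pathway 18 were positive (median 0.25), with the integrin chain Itgav at 0.50, the secreted target Tgfbi at 0.44 and the receptor Tgfbr1 at 0.39. Of 15 genes of the TNF pathway 13 had a difference above 0 (median 0.30), with Tnfaip2 at 0.67 (SE 0.251), the mRNA decay factor Zfp36l1 at 0.65 and the deubiquitinase Tnfaip3 at 0.47. In CD16/32HI cells all 15 were positive (median 0.50, with 4 of 15 at an unadjusted p under 0.05, against the same 4.91%) and in CD16/32LO cells 7 were (median -0.02). The populations differed less without the 14-month IL-15-/- mouse. Then 14 were positive in CD16/32HI cells (median 0.41, against 0.12 over all probe sets). In CD16/32LO cells 11 were (median 0.19, against 0.14). Without the IL-15+/+ mouse of replicate 1, the differences in the mean of both populations were 1.06 for Tnfaip2 and 1.03 for Nfkbiz. The 1 IL-15+/+ mouse then left is the one with the lowest array medians.

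Of 14 regulators of these genes in the NF-kB and hypoxia pathways 11 were positive (median 0.26). The inhibitor Nfkbia averaged 8.40 and 8.88 in IL-15-/- mice, against 7.83 and 7.89 in IL-15+/+ mice (0.78, SE 0.231, adjusted p = 0.468), and the atypical inhibitor Nfkbiz 8.24 and 8.52, against 7.86 and 7.34 (0.78, SE 0.237, adjusted p = 0.491). The hypoxia factor Hif1a had a difference of 0.38. Nfkbia and Nfkbiz are themselves known targets of NF-kB, as Tnf, Tnfaip3 and Ptgs2 are. The part of NF-kB in the values of these genes was not tested. In CD16/32HI cells Nfkbia was at 8.75 and 9.07 on the IL-15-/- arrays, against 7.69 and 7.67 on the IL-15+/+ arrays, and Nfkbiz was at 8.82 and 8.74, against 7.32 and 7.18. The values of each pair lay close together, and the adjusted p for both was above the threshold, as for every gene of the 8 lists.

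**Figure D5:**
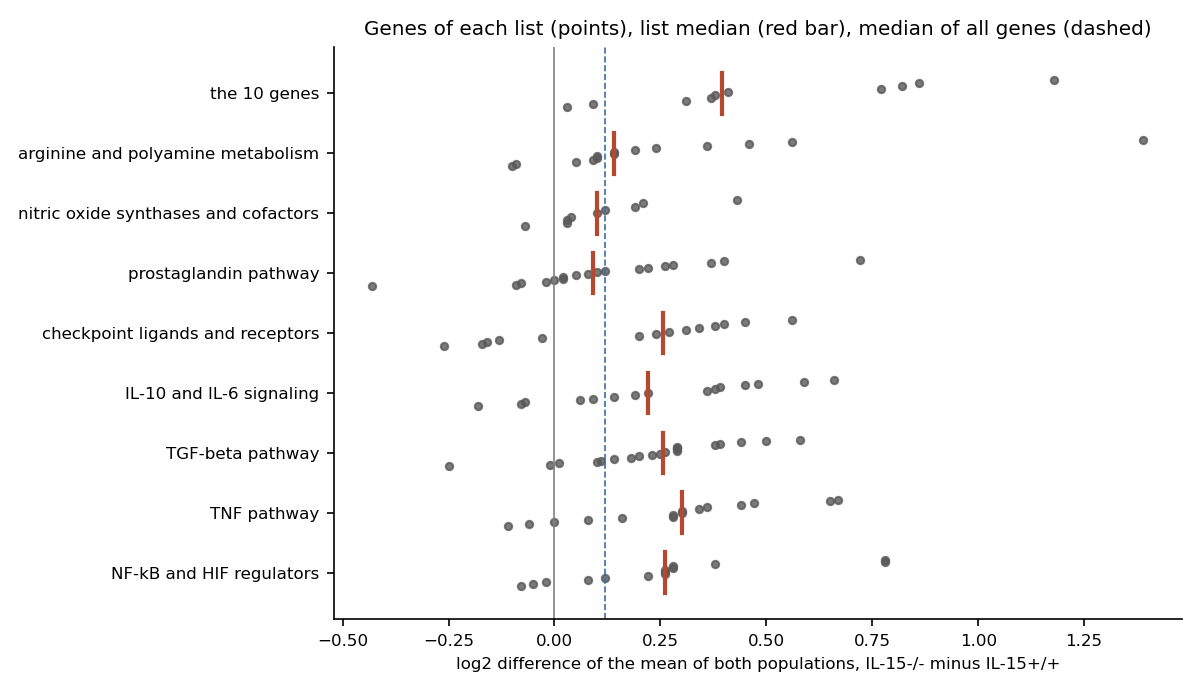
Log2 difference IL-15-/- minus IL-15+/+ in the mean of both populations (x axis) for the 10 genes and for each gene of the 8 pathway lists (points), with the median of a list as a bar and the median of all probe sets as a dashed line at 0.12. No point stands for a gene that passed the test, and Slc7a2 (1.39) and Arg1 (1.18) are the points farthest to the right.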

How the data were processed

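Each deposited value is the log2 signal of 1 probe set, which the authors background corrected, normalized and summarized with RMA in Expression Console, and no step was repeated. Probe sets were named from the platform annotation: 21789 of 35557 carry 1 gene symbol and were tested, 1621 carry several and were left out, and 12147 have none. Genotypes were compared with limma 3.58.1 in R 4.3.3, with a common spread over the 4 groups. Populations were compared within mice. Genotypes were also compared on the mean of both arrays of a mouse. The threshold was an adjusted p under 0.05 (Benjamini-Hochberg over all probe sets tested). Replicates are separate mice, and 2 arrays per group limit the precision. The fits were tested on simulated data.

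The members and lists were chosen with earlier results of these data known. The text names all 10 genes, any pathway gene that passed a genotype test (none did) and otherwise up to 3 per list with the largest difference in the mean of both populations among those whose mice did not overlap, and the 5 genes most like Arg1, Nos2, Ptgs2 and Cd274. Other pathway genes named with values (chromosomal neighbors, Hpgd, Hpgds, Alox5, Pdcd1, Ctla4 and Cd47) were chosen after their values were seen. Other scalings, filters, units, blocks, left-out arrays and the methods' 1-way test with a 3-fold filter were tried.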

Additional observations from a re-analysis of the deposited data

Results flagged for a closer look

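Among the 10 genes and the pathway genes named by the rule, the other listed genes not being screened, there were 7 in which the difference between CD16/32HI and CD16/32LO cells had one sign in both IL-15-/- mice and the other in both IL-15+/+ mice, or the difference between the genotypes had opposite signs in the populations without overlap. The difference of the differences was tested as an interaction with limma within mice, and none passed. For Ptges it was -0.52 (SE 0.238, adjusted p = 0.878), with -0.13 and -0.41 in IL-15-/- mice and 0.29 and 0.20 in IL-15+/+ mice. For its neighbor in the pathway Pla2g4a it was -0.56. For the receptor chains Il10ra and Il10rb it was 0.58 and 0.31. For Nfkbiz and Nfkbia it was 1.51 and 0.90. For Tnfaip3 it was 1.59, with 8.53 and 8.31 in CD16/32HI cells of IL-15-/- mice, against 7.40 and 6.90 in IL-15+/+ mice, and 7.42 and 7.89 in CD16/32LO cells of IL-15-/- mice, against 8.06 and 7.91 in IL-15+/+ mice. All of these terms include the IL-15-/- mouse of replicate 1, whose population markers ran against its labels. The share of all probe sets that meet the same rule was not counted, so the 7 cannot be set against it.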

How the results depend on the processing

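The number of probe sets called between genotypes in CD16/32HI cells (5) was 3 over probe sets at or above the median signal, 3 with a replicate block, 0 with a block for the normalization set, 2 with only the 4 arrays of the population and 0 in the methods' 1-way test (1045 at its unadjusted threshold, 10 of them over 3-fold and 0 of these among the 10 genes). Leaving out arrays gave 2 to 9. In CD16/32LO cells (8) it was 2 with the block for the set and 0 in the methods' test (778 unadjusted), with 3 to 26 when arrays were left out. In the mean of both populations 11 were higher and 26 lower (37 in all). The count was 17 with arrays centred (3 higher and 14 lower), 23 with quantile normalization (3 and 20), 7 over all probe sets and 47 to 205 without 1 mouse. Between populations leaving out a mouse gave 0 to 3114, and for the interaction 0 to 2831, the last without the IL-15-/- mouse of replicate 2. The causes were not tested. The replicate number goes with age and, in replicate 1, with 1 normalization set, but the labels name no shared litter, batch or day. Deviations of same-numbered samples correlated at 0.06 in CD16/32HI, 0.13 in CD16/32LO and 0.30 in the mean of both. With 2 samples per group the deviations of the 2 pairs mirror each other. Each level thus gives 1 value, which does not settle a pairing. With a replicate block 214 were called in the mean of both, among them Arg1 (adjusted p = 6.71e-05), Ptgs2 (0.0218), Tnf (0.034) and Slc7a2 (5.07e-07). That block leaves little in 4 mice from which to estimate the spread.

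Signs turned in CD16/32HI cells for Arg1 (-0.07 centred, -0.20 quantile) and Ptges (-0.02 quantile), and in the mean of both for Arg2 (-0.04 and -0.08), Il10 (-0.10 and -0.07) and Spr (-0.01 and -0.03) under these scalings. They also turned for Ptges with the block for the normalization set in CD16/32HI cells (-0.37) and between populations (0.02 centred, 0.03 quantile) and for Tgfb1 with that block in CD16/32LO cells (-0.22). With arrays or mice left out, values in CD16/32HI cells ran from -0.84 to 0.97 for Arg1, -0.08 to 2.44 for Arg2, -0.15 to 0.47 for Ptges, -0.49 to 0.17 for Il10 and -1.13 to 0.79 for Il6. In CD16/32LO cells they ran from -1.21 to 0.18 for Ptgs2 and -0.19 to 0.54 for Tgfb1. Between populations they ran from -0.11 to 0.12 for Ptges, -0.06 to 0.29 for Il10 and -0.07 to 0.51 for Tnf. In the mean of both they ran from -0.19 to 0.37 for Arg2, -0.06 to 0.12 for Il10, -0.02 to 0.78 for Il6 and -0.09 to 0.70 for Tgfb1. The low signals of Il6 and Il10 and 2 mice per genotype limit what can be seen.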
